A study of Mus musculus with 9 samples.

Results

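The data described here compare the nasal mucosa of mice challenged with ovalbumin and taken 2 hours after the last challenge with that of mice given saline, across genes grouped by function. The members are 6 of the 9 arrays of the series: the 3 whose titles name the OVA group and the 3 whose titles name the control group. All 6 come from BALB/c mice, an inbred strain widely used in allergic airway models, labelled male and 6 to 8 weeks old. Control mice received saline at sensitisation and at challenge, and OVA mice received ovalbumin, a hen egg protein that serves as the allergen, at both. The remaining 3 arrays, from mice with the OVA treatment taken 4 weeks after the last challenge, enter the fit and are given beside the results as the 4-week values. RNA was hybridised to Affymetrix Mouse Gene 1.0 ST arrays, which carry short probes along whole transcripts, and the values are log2 expression per probe set. The comparison asks what differed in this tissue after sensitisation and challenge with the allergen, the last challenge 2 hours before. The parts of sensitisation, of earlier challenges and of the last challenge cannot be told apart in it.

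Of 35556 rows of the deposited table, 23410 named at least 1 gene and were tested, and they represented 19103 autosomal genes by a single probe set each. The medians of the tested probe sets lay between 6.38 and 6.45 on the 9 arrays. Across genes, r was 0.986 to 0.992 between arrays within a group and 0.977 to 0.986 between control and OVA arrays. Genes that define the labelled tissue were bright on every array, among them Omp of mature olfactory neurons (11.47 to 12.43), Cyp2g1 of sustentacular cells (12.69 to 12.99) and Bpifa1 of nasal secretory cells (12.37 to 13.14). The club cell gene Scgb1a1 lay between 2.91 and 3.45. Sex-linked transcripts went against the label of the control arrays. Xist, the RNA that coats the inactive X chromosome of females, averaged 10.81 ± 0.26 (SD, n = 3) there, against 4.29 ± 0.07 on the OVA and 4.33 ± 0.08 on the 4-week arrays. The Y-linked Eif2s3y stood at 3.31, 8.28 and 8.25 in the same order, and Uty at 3.43, 7.33 and 7.66. Challenge and sex pattern therefore cannot be told apart in the comparison of OVA with control arrays, and the description keeps to autosomal genes. The 4-week arrays share the male pattern of the OVA arrays. Raised genes differed against them, as examples chosen after their values were seen show, with the same OVA arrays in both comparisons. Snora44, Bcl3 and Bhlhe40 were higher in the OVA than in the 4-week arrays as well, by 1.83, 1.53 and 1.10 on the log2 scale (limma, adjusted p = 0.00174, 0.00727 and 0.00356). Sox11, Socs2 and Ccl9 were not, with changes of 0.14, 0.08 and −0.08 (limma, adjusted p = 0.434, 0.652 and 0.854). The part of sex in the results was not tested. Since no label ties an array to its own animal, p-values here reflect only how far these samples spread, and that spread may be technical. The tissue was assayed in bulk, where fewer cells of a type and less RNA per cell cannot be told apart.

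Nasal mucosa joins a ciliated and secretory respiratory epithelium to the olfactory epithelium, in which basal progenitors keep replacing sensory neurons. In sensitised animals an allergen cross-links IgE on mast cells within minutes, and cytokines such as IL-1 then act on epithelium and leukocytes through NF-kappaB, while receptors of the IL-6 family signal through STAT3 and those of IL-3, IL-5 and GM-CSF through STAT5. Many of the first genes these factors switch on encode brakes on the same pathways.

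At an adjusted p under 0.05 in limma, 141 autosomal genes were higher in the OVA arrays (0.738% of 19103) and 103 were lower (0.539%). These shares are the background for the counts of calls in each list below. Rises thus made up 57.8% of the calls, which became 47.6% (140 higher and 154 lower) after quantile normalization of the deposited values. The rises reached 4.91-fold, and 38 genes rose and 35 fell by over 2-fold. The median change over all autosomal genes was −0.015 on the log2 scale. At an unadjusted p under 0.05, 3118 autosomal genes differed (16.3%), 8.32% higher and 8.00% lower, which is the background for the list counts at that threshold below. Groups with raised members were cytokine and NF-kappaB genes, receptors of myeloid cells, immediate early genes, immature neuron genes and small nucleolar RNAs. Groups with lowered members were olfactory receptors and genes of plasma proteins that come mostly from liver. Each call was checked in 9 fits that left out another array in turn, and 22 of the 141 rises and 11 of the 103 falls were kept in all 9. In all, 305 of 23410 probe sets were called (1.30%). Removing control replicate 2 left 63 calls, OVA replicate 1 87, OVA replicate 3 110, control replicate 3 141, control replicate 1 192 and OVA replicate 2 197. With the 4-week arrays left out of the fit, 109 were called.

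**Figure D1:**
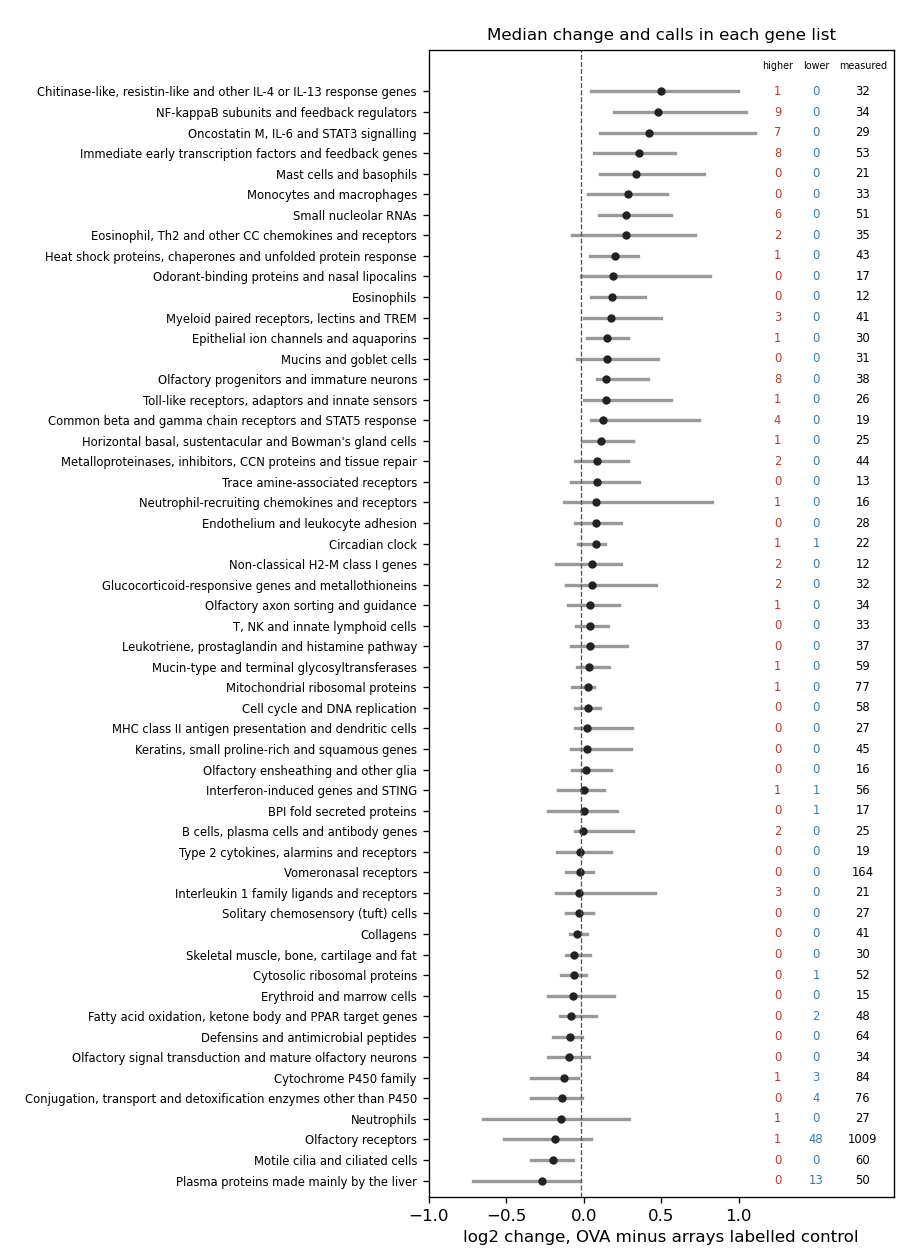
Median log2 change, OVA minus the arrays labelled control, of the members of each gene list (points), with the range between the quartiles (grey lines) and the median of all autosomal genes (dashed line, −0.015). The columns at the right count members that passed the test higher or lower and members measured; NF-kappaB feedback genes (9 higher of 34) lie near the top and plasma protein genes (13 lower of 50) at the bottom.

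Interleukin 1 ligands and the NF-kappaB brakes rose together. Il1b, the secreted cytokine that starts much of acute inflammation, stood at 7.68, 8.33 and 7.55 on OVA replicates 1, 2 and 3 and at 6.09, 5.59 and 5.30 on control replicates 1, 2 and 3. The lowest OVA array was above the highest control array, and the difference was 4.57-fold (log2 change 2.19, SE 0.24; adjusted p = 0.00764), with a 4-week mean of 7.21. Il1a, the cytokine released by damaged epithelium, stood at 4.90, 5.38 and 5.48 against 4.12, 4.01 and 3.58 and rose 2.56-fold (adjusted p = 0.0160), with a 4-week mean of 4.97. Il1rn, the antagonist that blocks the shared receptor, stood at 6.21, 6.11 and 6.41 against 5.79, 5.63 and 5.51 and rose 1.52-fold (adjusted p = 0.0415), with a 4-week mean of 5.71, near the arrays labelled control. These were 3 of 21 measured members of the interleukin 1 family, against 0.738% of all genes, and none fell. The decoy receptor Il1r2 had a change of 0.74 and did not pass (adjusted p = 0.0910), and the family's median was −0.029. Without control replicate 2 or OVA replicate 3, Il1b alone of the 3 passed, and Il1rn did not pass in 8 fits (adjusted p up to 0.133).

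Of 34 measured NF-kappaB subunits and feedback regulators, 9 rose (26.5%) and none fell, 21 had no overlap between the groups in the higher direction (10.2% of all genes), and the median change was 0.48, against 0.06 in the 4-week arrays. Bcl3, a nuclear IkappaB protein that works with p50 and p52, stood at 7.77, 8.61 and 8.08 in the OVA arrays against 6.87, 6.58 and 6.37 and rose 2.93-fold (log2 change 1.55, SE 0.21; adjusted p = 0.0160). Its 4-week mean, 6.63, was close to that of the arrays labelled control. Tnip3, a partner of the A20 deubiquitinase, stood at 5.27, 6.02 and 5.50 against 4.31, 4.16 and 4.16 (log2 change 1.39, SE 0.20; adjusted p = 0.0185). Zc3h12a, the ribonuclease Regnase-1 that destroys inflammatory mRNAs, stood at 6.65, 7.19 and 6.64 against 5.79, 5.50 and 5.70 (log2 change 1.16, SE 0.17; adjusted p = 0.0185). All 3 had OVA arrays wholly above both other groups. Tnfaip3, which encodes A20 itself, stood at 6.63, 7.65 and 7.21 against 6.16, 5.98 and 6.08 (log2 change 1.09, SE 0.21; adjusted p = 0.0466). OVA replicate 2 was the highest array for Bcl3, Tnip3, Zc3h12a and Tnfaip3 alike. The other 5 were Ier3 (1.22, adjusted p = 0.0347), Birc3, an inhibitor of apoptosis (0.92, adjusted p = 0.0302), the p100 subunit gene Nfkb2 (0.80, adjusted p = 0.0209), and the cytoplasmic inhibitors Nfkbie (0.78, adjusted p = 0.0457) and Nfkbib (0.42, adjusted p = 0.0464). Zfp36, an mRNA-destabilising feedback gene, stood just outside the threshold (change 1.02, adjusted p = 0.05004). Without control replicate 2, control replicate 3 or OVA replicate 3, 1 of the 9 calls was kept in each case against 3 to 7 without each other array and 1 in the fit of the compared groups alone, with adjusted p up to 0.152 in the fits that left out 1 array.

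Since these genes moved together, the 250 bases before each RefSeq start site were searched on both strands for the kappaB consensus, the site bound by NF-kappaB dimers. It occurred in 5 of the 9 raised feedback genes, in 18 of the 105 raised genes with a promoter entry (17.1%), in 2 of the 83 lowered genes with one (2.41%) and in 760 of all 14958 autosomal genes with one (5.08%). A match is a description of letters, not evidence of binding. The stretches around the matches in the 5 feedback genes are printed 5′ to 3′ on the gene's strand from GRCm38.p6, with the matches in capitals. They are, in order, chr10:19015411-19015570 (minus strand, 1 of 2 listed starts), chr19:46304663-46304736 (plus, 1 of 3 listed starts of this gene), chr17:45555559-45555638 (plus), chr6:65590309-65590388 (plus) and chr17:35821586-35821665 (plus).
Tnfaip3: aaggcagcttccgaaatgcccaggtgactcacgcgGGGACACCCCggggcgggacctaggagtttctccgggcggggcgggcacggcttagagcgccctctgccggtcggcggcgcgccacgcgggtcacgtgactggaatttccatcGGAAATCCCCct
Nfkb2: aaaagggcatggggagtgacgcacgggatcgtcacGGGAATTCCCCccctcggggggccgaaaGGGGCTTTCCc
Nfkbie: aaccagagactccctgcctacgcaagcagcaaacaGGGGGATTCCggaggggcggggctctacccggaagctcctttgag
Tnip3: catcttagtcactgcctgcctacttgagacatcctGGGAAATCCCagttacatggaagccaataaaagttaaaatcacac
Ier3: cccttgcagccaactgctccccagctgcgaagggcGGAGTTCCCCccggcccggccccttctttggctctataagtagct
The printed stretch of Tnfaip3 held 2 separate matches, and that of Nfkb2 an overlapping pair and a further match, which makes 3. The first match began 125 bases before the start site in Tnfaip3, 106 in Nfkbie, 92 in Ier3, 54 in Tnip3 and 39 in Nfkb2. The other 4 raised feedback genes, Bcl3, Birc3, Zc3h12a and Nfkbib, had no match in their windows. The STAT motif TTCNNNGAA occurred in 14.3% of raised, 13.3% of lowered and 7.76% of all genes with an entry, and the AP-1 motif TGANTCA in 11.4%, 10.8% and 7.10%.

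**Figure D2:**
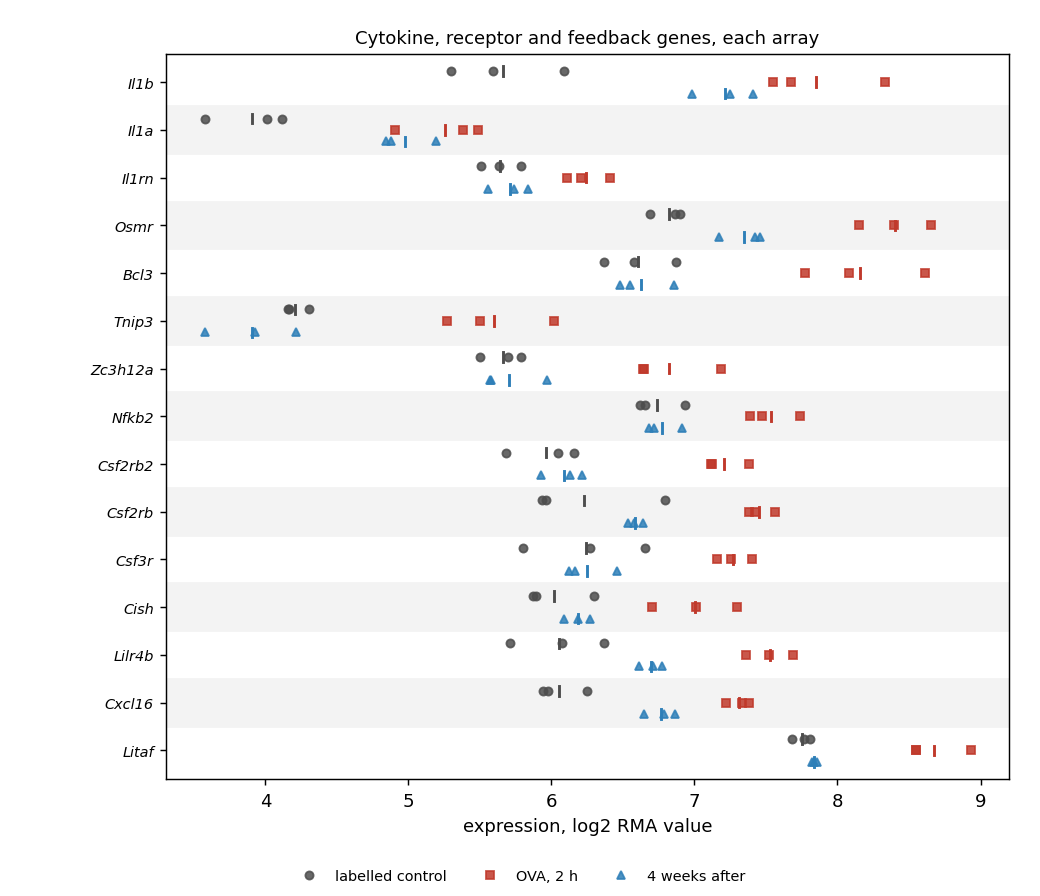
Log2 RMA values of 15 cytokine, receptor and feedback genes on each array (symbols) with group means (ticks). For each gene the 3 OVA arrays lie above the 3 arrays labelled control; the 4-week arrays of Bcl3 and Litaf lie near the arrays labelled control, while those of Il1b lie between the groups.

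Genes of oncostatin M, IL-6 and STAT3 signalling were raised as well, 7 of 29 (24.1%) with none lower and a median of 0.42. Osmr, the receptor subunit for oncostatin M on epithelium and stroma, stood at 8.15, 8.65 and 8.39 in the OVA arrays against 6.90, 6.87 and 6.69 and rose 2.99-fold (log2 change 1.58, SE 0.13; adjusted p = 0.00171), with a 4-week mean of 7.35. Sbno2, a transcriptional co-regulator induced through STAT3, stood at 7.92, 8.68 and 8.08 against 6.84, 6.98 and 7.07 (log2 change 1.27, SE 0.18; adjusted p = 0.0162), and its 4-week mean was 6.95. Steap4, a metalloreductase induced by inflammatory cytokines, stood at 9.25, 9.86 and 9.05 against 8.38, 7.97 and 7.56 (log2 change 1.41, SE 0.24; adjusted p = 0.0292). The transcription factor Cebpd (1.17, adjusted p = 0.0396), the kinase Jak2 (0.46, adjusted p = 0.0375) and Stat3 itself (0.45, adjusted p = 0.0292) had smaller rises, and Bcl3 belongs to this list too. Among ligands, Il6 did not pass: it stood at 3.01, 5.12 and 4.91 on the OVA arrays against 2.94, 3.00 and 2.99, so that OVA replicate 1 lay with the arrays labelled control and the other two above them (change 1.37, adjusted p = 0.187). Osmr was kept in all 9 fits and Sbno2 was lost without control replicate 2 only (adjusted p = 0.0745). Without that array 1 of the 7 calls was kept, without any other array 3 to 6, and with the compared groups alone 1.

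Receptor chain genes for IL-3, IL-5 and GM-CSF, cytokines of eosinophils and other myeloid cells, were raised, as were Cish and Socs2, known to respond to STAT5. Whether these receptors drove Cish and Socs2 was not tested. Csf2rb2, the IL-3-specific beta chain found in mice, stood at 7.12, 7.38 and 7.12 in the OVA arrays against 6.16, 6.05 and 5.68 (log2 change 1.24, SE 0.14; adjusted p = 0.00764). Csf2rb, the common beta chain, stood at 7.38, 7.42 and 7.56 against 6.79, 5.96 and 5.94 (log2 change 1.22, SE 0.20; adjusted p = 0.0255). The 4-week means were 6.09 and 6.59. The probes of these adjacent, near-identical genes may share transcripts, so their values are not independent. Cish, a STAT5-induced inhibitor of the same receptors, stood at 6.70, 7.30 and 7.01 against 5.87, 6.29 and 5.89 (log2 change 0.98, SE 0.16; adjusted p = 0.0260), with a 4-week mean of 6.18. Socs2, another such inhibitor, stood at 10.12, 10.13 and 9.89 against 9.22, 9.29 and 9.19 (log2 change 0.81, SE 0.09; adjusted p = 0.00883), but its 4-week mean was 9.97, near the OVA arrays. A second probe set of Socs2 rose by less (0.54, adjusted p = 0.0237). These 4 of 19 measured members (21.1%) were the ones that passed, and none fell. Csf2rb2 and Socs2 were kept in all 9 fits, Csf2rb was lost in 5 (adjusted p up to 0.112) and Cish in 4 (up to 0.0863), in each case without control replicate 3, OVA replicate 2 or OVA replicate 3 among others.

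Chemokine genes moved unevenly. Cxcl16, a membrane-bound chemokine and scavenger receptor, stood at 7.33, 7.22 and 7.38 in the OVA arrays against 6.25, 5.98 and 5.94 (log2 change 1.26, SE 0.10; adjusted p = 0.00171), with a 4-week mean of 6.77. Ccl9, a chemokine for myeloid cells in the mouse, stood at 8.63, 8.07 and 8.24 against 6.96, 6.70 and 7.08 (log2 change 1.40, SE 0.22; adjusted p = 0.0241) and had a 4-week mean of 8.40, as high as the OVA arrays. They were 2 of 35 measured CC and related chemokines and receptors. Of 16 neutrophil chemokines and receptors, only the G-CSF receptor gene Csf3r passed (7.40, 7.25 and 7.15 against 6.66, 6.27 and 5.80; log2 change 1.03, SE 0.19; adjusted p = 0.0443). The list had a median of 0.08, with 10 of 16 above 0. Some single ligands, named after their values were seen, had large changes that did not pass: Ccl20, which draws dendritic cells and lymphocytes, stood at 7.47, 9.80 and 9.42 against 6.75, 6.39 and 6.08 (2.49, adjusted p = 0.0585), and the neutrophil chemokine Cxcl2 at 6.07, 8.21 and 6.29 against 4.60, 4.58 and 4.93 (2.15, adjusted p = 0.0727). For both, the groups did not overlap but the OVA arrays were over 2 log2 units apart. Cxcl16 was kept in all 9 fits, Ccl9 was lost in 5 (adjusted p up to 0.113, without any control array or OVA replicate 1 or 3) and Csf3r in 8 (up to 0.148).

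Receptors and adaptors of innate immune cells were raised in part. Lilr4b, an immunoglobulin-like receptor of myeloid cells, stood at 7.36, 7.69 and 7.52 in the OVA arrays against 6.37, 6.08 and 5.71 (log2 change 1.47, SE 0.15; adjusted p = 0.00610). Its near-identical neighbour Lilrb4a, whose probes may share transcripts with it, stood at 6.96, 7.33 and 7.30 against 6.39, 5.92 and 5.47 (log2 change 1.27, SE 0.22; adjusted p = 0.0312). The activating receptor Trem1 also rose (0.74, adjusted p = 0.0466), which made 3 of 41 myeloid receptors and lectins higher and none lower. Litaf, an LPS-induced endosomal factor, stood at 8.55, 8.55 and 8.93 against 7.77, 7.81 and 7.68 (log2 change 0.92, SE 0.10; adjusted p = 0.00764), and its 4-week mean was 7.84. Sting1, the sensor of cyclic dinucleotides, stood at 8.26, 8.24 and 8.29 against 7.58, 7.09 and 6.90 (log2 change 1.07, SE 0.16; adjusted p = 0.0215), while of 56 interferon-induced genes it alone rose and Ifi27l2a alone fell (6.25, 6.78 and 6.43 against 7.86, 7.39 and 7.59; log2 change −1.13, SE 0.18; adjusted p = 0.0246). The adaptor Myd88 (0.91, adjusted p = 0.0241), the kinase Map3k8 that carries its signal to MAP kinases (1.19, adjusted p = 0.0185), the receptor of platelet-activating factor Ptafr (0.65, adjusted p = 0.0431) and the interferon gamma receptor chain Ifngr2 (0.73, adjusted p = 0.0160) rose too. Lilr4b and Litaf were kept in all 9 fits, and the others named here were lost in 1 (Ifngr2, without control replicate 2) to 8 of them, with adjusted p up to 0.138.

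Marker lists of leukocytes held few calls. None of 33 monocyte and macrophage markers passed in limma (14 at an unadjusted p under 0.05, 10 of them higher, against 16.3% of all genes), 26 had a change above 0 and the median was 0.29, beside 0.18 for the myeloid receptors. The summed level of the macrophage markers (log2 of the sum of linear values over the list) was 12.39 to 12.81 in the OVA arrays and 12.20 to 12.69 in the arrays labelled control. Of 27 neutrophil markers, Csf3r alone passed, 8 had a change above 0 and the median was −0.15. At an unadjusted p under 0.05 in limma, 6 were higher and 7 lower (8.32% and 8.00% of all genes). No overlap was seen in 8 in the lower direction (29.6%, against 11.0% of all genes) and in 4 in the higher (14.8%, against 10.2%). The summed level of the neutrophil markers was 13.43 to 13.84 against 12.51 to 13.80. The granule genes S100a8 (change −1.01, adjusted p = 0.323) and Camp (−1.17, adjusted p = 0.156) did not pass. Ngp, another granule gene, stood at 10.42, 10.82 and 9.04 on the arrays labelled control and at 9.37, 8.62 and 8.72 on the OVA arrays, so that control replicate 3 stood apart from the other two. None of 33 T and NK cell, 27 antigen presentation or 12 eosinophil genes passed in limma, with 3, 5 and 1 of them at an unadjusted p under 0.05 (16.3% of all genes). The part of leukocyte numbers in the results above was not tested.

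The genes most often used to mark allergic inflammation did not pass at 2 hours. Mcpt2, a protease of mucosal mast cells, stood at 8.66, 5.61 and 9.29 on OVA replicates 1, 2 and 3 against 4.26, 4.21 and 3.74 (change 3.78, adjusted p = 0.0574), with a 4-week mean of 6.41. OVA replicate 2 stood well below the other OVA arrays for it, for its neighbour Mcpt1 and for Retnla, a product of alternatively activated macrophages. Of 21 mast cell and basophil genes none passed in limma, 9 were higher and 2 lower at an unadjusted p under 0.05 (8.32% and 8.00% of all genes), and the median was 0.34, with a summed level of 10.16 to 11.49 against 9.76 to 10.16. Of 32 chitinase-like, resistin-like and other IL-4 or IL-13 response genes Cish alone passed and the median was 0.50. Il4ra, the receptor chain shared by IL-4 and IL-13, had a change of 0.83 (adjusted p = 0.0537), and Alox12e, an epithelial lipoxygenase, 1.79 (adjusted p = 0.0535). None of 19 type 2 cytokines, alarmins and receptors and none of 31 mucin and goblet cell genes passed in limma, with 4 and 8 of them at an unadjusted p under 0.05 (16.3% of all genes).

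Immediate early genes, which respond to stimulation without new protein synthesis, were raised in 8 of 53 cases (15.1%) and lowered in none. Their median was 0.36, and 27 had no overlap in the higher direction (50.9%, against 10.2% of all genes). Nr4a3, an orphan nuclear receptor, stood at 5.99, 6.88 and 6.01 in the OVA arrays against 5.18, 5.13 and 5.23 (log2 change 1.12, SE 0.21; adjusted p = 0.0466), with OVA replicate 2 the highest. The zinc finger factor Klf10 (0.88, adjusted p = 0.0128), the AP-1 subunits Fosl2 (0.71, adjusted p = 0.0457) and Jun (0.46, adjusted p = 0.0415), the factor Klf6 (0.64, adjusted p = 0.0170) and the matrix protein gene Ccn2 (0.66, adjusted p = 0.0219) rose with it, as did Ier3 and the kinase Plk3 (0.60, adjusted p = 0.0286). The 4-week means of Jun (8.61), Klf6 (7.92) and Ccn2 (9.44) were at or above the OVA means, and that of Nr4a3 (5.28) was near the arrays labelled control. Bhlhe40, a repressor that responds to stress and cytokines and feeds into the circadian clock, stood at 7.95, 8.20 and 8.23 against 6.97, 7.32 and 7.26 (log2 change 0.95, SE 0.12; adjusted p = 0.0123), with a 4-week mean of 7.03. The clock repressor Nr1d1 fell (8.34, 8.53 and 8.42 against 9.37, 9.11 and 8.86; log2 change −0.69, SE 0.13; adjusted p = 0.0470) and was lower still at 4 weeks (7.17), while the other 20 of 22 clock genes did not pass. The time of day at collection is not given in the sources used here. Bhlhe40 was kept in all 9 fits, but Nr1d1 was lost in 8 (adjusted p up to 0.159). None of the 8 immediate early calls was kept without OVA replicate 1 or with the compared groups alone, 1 was kept without control replicate 2, and 2 without control replicate 3 or OVA replicate 3, with adjusted p up to 0.148.

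Epithelial genes were among the rises, and those named here were grouped after their values were seen. Cldn4 and Cldn7, which build tight junctions, stood at 8.34, 8.84 and 8.57 and at 8.63, 8.82 and 8.70 in the OVA arrays against 7.67, 7.63 and 7.48 and 8.03, 7.77 and 7.61 (log2 changes 0.99 and 0.91, adjusted p = 0.0202 and 0.0113). Elf3, an epithelial ETS factor induced by IL-1, stood at 8.23, 8.62 and 7.79 against 7.21, 7.20 and 6.69 (log2 change 1.18, SE 0.23; adjusted p = 0.0457). B4galnt2, which adds the terminal sugar of the Sda antigen, stood at 6.68, 6.79 and 6.54 against 4.80, 4.82 and 4.81 (log2 change 1.86, SE 0.33; adjusted p = 0.0369). Its arrays labelled control were almost equal, and its 4-week arrays spread from 5.51 to 7.19. The membrane protease St14 (0.63, adjusted p = 0.0317), the membrane protein Emp1 (0.82, adjusted p = 0.0185), the sulphate transporter Slc26a1 (0.92, adjusted p = 0.0219), the potassium channel Kcnk5 (0.82, adjusted p = 0.0220) and the chloride channel Cftr (0.56, adjusted p = 0.0457) rose too. Of 45 keratin, small proline-rich and squamous genes none passed in limma (8 higher and 0 lower at an unadjusted p under 0.05, against 8.32% and 8.00% of all genes). Cldn7 was lost without control replicate 2 only, and the others in 3 (Cldn4, Emp1) to 9 (Cftr) of the 9 fits, with adjusted p up to 0.152.

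Metabolic and stress genes, picked and grouped after their values were seen, rose with them. Slc7a11, which imports cystine for glutathione synthesis, stood at 8.27, 8.59 and 8.09 in the OVA arrays against 7.42, 6.98 and 6.72 (log2 change 1.28, SE 0.18; adjusted p = 0.0160). Gclm, a subunit of the enzyme that makes glutathione's precursor (0.55, adjusted p = 0.0457), the autophagy receptor Sqstm1 (0.46, adjusted p = 0.0415) and the stress factor Nupr1 (0.79, adjusted p = 0.0242) rose, and all 3 had 4-week means at or near the OVA level (9.84, 10.34 and 9.89). Genes known as targets of hypoxia-inducible factor rose as well: the prolyl hydroxylases Egln3 (0.90, adjusted p = 0.0123) and P4ha1 (0.58, adjusted p = 0.0148), the glucose transporter Slc2a1 (0.60, adjusted p = 0.0235) and the vasodilator peptide gene Adm (0.52, adjusted p = 0.0242). Of 43 chaperone and unfolded protein response genes, Xbp1 alone passed (0.54, adjusted p = 0.0229). The median of the list was 0.20, with a higher 4-week median of 0.33, and 19 members had no overlap in the higher direction (44.2%, against 10.2% of all genes). Egln3 and P4ha1 were lost without control replicate 2 only (adjusted p = 0.0544 and 0.0692), and the others named here in 2 to 9 of the 9 fits, with adjusted p up to 0.144.

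In the olfactory epithelium, genes of newly formed neurons were higher and many odorant receptor genes were lower. Of 38 measured genes of progenitors and immature neurons, 8 rose (21.1%) and none fell, with a median of 0.15. Nhlh1, a transcription factor of neurons that have just left the cell cycle, stood at 7.90, 7.87 and 7.45 in the OVA arrays against 5.99, 5.81 and 6.44 and rose 3.16-fold (log2 change 1.66, SE 0.19; adjusted p = 0.00833). Sox11, a factor of neuronal differentiation, stood at 7.62, 7.33 and 7.23 against 6.22, 6.23 and 6.05 (log2 change 1.22, SE 0.10; adjusted p = 0.00171). Stmn1, a microtubule regulator of growing neurites, stood at 10.10, 9.89 and 9.74 against 8.82, 8.88 and 8.89 (log2 change 1.05, SE 0.10; adjusted p = 0.00302), and a second probe set rose by 1.04. In each of the 3 the groups were well apart and the 4-week means (7.45, 7.25 and 9.76) were close to the OVA arrays. The tubulin gene Tubb2b (1.01, adjusted p = 0.0189), the growth cone genes Dpysl3 (0.73, adjusted p = 0.00968) and Gap43 (0.51, adjusted p = 0.0398), the G protein subunit Gng8 (0.70, adjusted p = 0.0234) and the progenitor factor Insm1 (0.67, adjusted p = 0.0235) rose with them, and the 4-week means of Gng8 (6.50) and Insm1 (7.38) lay nearer the arrays labelled control. None of 58 cell cycle genes passed in limma, and 1 had an unadjusted p under 0.05, against 16.3% of all genes. Nhlh1, Sox11, Stmn1 and Dpysl3 were kept in all 9 fits, and 4 of the 8 calls were kept without control replicate 2, OVA replicate 1 or OVA replicate 2 (adjusted p of the others up to 0.121).

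Odorant receptors, of which each mature neuron expresses a single one, were the largest family among the falls. Of 1009 measured, 48 fell (4.76%, against 0.539% of all genes) and 1, Olfr904, rose (0.68, adjusted p = 0.0355), 327 had no overlap in the lower direction (32.4%, against 11.0% of all genes), and the median was −0.19 with a 4-week median of −0.32. Olfr868 stood at 4.66, 5.10 and 4.77 in the OVA arrays against 6.48, 7.18 and 6.92 (log2 change −2.02, SE 0.27; adjusted p = 0.0145), with a 4-week mean of 4.58. Olfr39 stood at 5.77, 6.18 and 6.00 against 7.54, 7.79 and 7.48 (log2 change −1.62, SE 0.18; adjusted p = 0.00764), and Olfr1295 at 4.60, 4.42 and 4.39 against 6.20, 6.05 and 5.82 (log2 change −1.55, SE 0.14; adjusted p = 0.00268). The 48 falls ran from −0.34 to −2.02, 22 of them over 2-fold, and in 47 the 4-week mean was below the mean of the arrays labelled control as well. They were spread over 11 chromosomes, with 15 of 272 measured receptors on chromosome 2, 10 of 219 on chromosome 7 and 5 of 42 on chromosome 17. The medians of all receptors were −0.23 on chromosome 2, −0.02 on chromosome 7 and −0.52 on chromosome 17. Receptor genes of a cluster are similar in sequence, so probes may share transcripts. The mature neuron genes did not follow as calls: none of 34 transduction and mature neuron genes passed in limma (1 higher and 6 lower at an unadjusted p under 0.05, against 8.32% and 8.00% of all genes), Omp had 11.69, 11.87 and 11.91 against 12.08, 12.26 and 12.43 (change −0.44, adjusted p = 0.208), and the summed level was 15.62 to 15.77 against 15.70 to 15.98. The part of mature neuron number in the receptor result was not tested. Of the 49 receptor calls, 4 (Olfr39, Olfr479, Olfr796 and Olfr1295) were kept in all 9 fits, 6 without OVA replicate 1 or OVA replicate 3, 8 without control replicate 2, and 14 to 39 without each other array. None of 164 vomeronasal receptors passed in limma, and 7 had an unadjusted p under 0.05, against 16.3% of all genes.

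**Figure D3:**
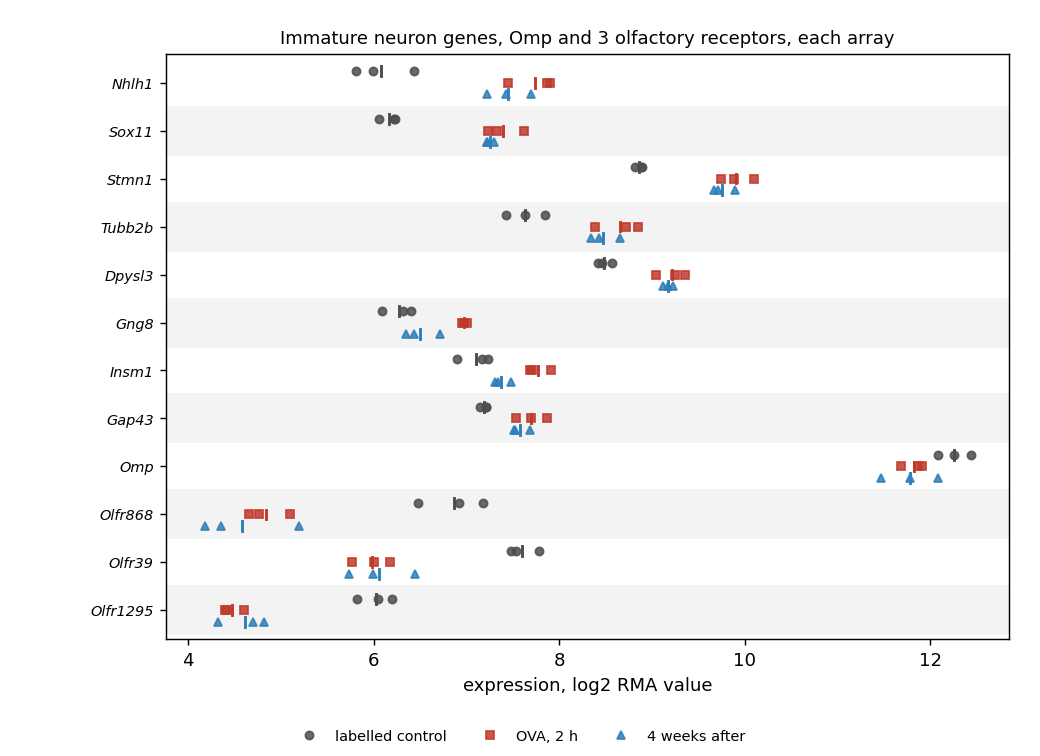
Log2 RMA values of 8 immature neuron genes, the mature neuron gene Omp and 3 odorant receptors on each array (symbols) with group means (ticks). The OVA arrays lie above the arrays labelled control for the 8 immature neuron genes and below them for Omp and the receptors; the 4-week arrays of Nhlh1, Sox11, Stmn1 and the receptors lie with the OVA arrays.

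H2-M10.3 and H2-M10.6, non-classical class I genes known from vomeronasal sensory neurons, both rose, 2 of 12 measured members of their family, and none fell. Another 4 members had no overlap in the lower direction, against 11.0% of all genes, and did not pass, and the family's median was 0.055. H2-M10.3 stood at 8.46, 8.40 and 8.63 in the OVA arrays against 5.46, 6.02 and 7.13 (log2 change 2.30, SE 0.34; adjusted p = 0.0192), with the OVA arrays close together and the arrays labelled control spread. H2-M10.6 stood at 4.42, 4.35 and 4.38 against 3.13, 3.86 and 3.56 (log2 change 0.87, SE 0.16; adjusted p = 0.0383). Near-identical copies of these genes could share probes. Neither passed without OVA replicate 1 or OVA replicate 3 (adjusted p up to 0.129).

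Small nucleolar RNAs, which guide the modification and processing of ribosomal RNA, set the OVA arrays apart from both other groups. Snora44, a guide for pseudouridylation, stood at 9.40, 9.41 and 9.46 in the OVA arrays against 7.06, 7.69 and 7.38 and rose 4.12-fold (log2 change 2.04, SE 0.15; adjusted p = 0.00128), with a 4-week mean of 7.59. Snord118, the U8 RNA needed to process the large ribosomal subunit's RNA, stood at 10.35, 10.33 and 10.48 against 8.54, 9.04 and 8.58 (log2 change 1.67, SE 0.14; adjusted p = 0.00171), with a 4-week mean of 8.26. The 3 OVA arrays of each were close together and far above all arrays of both other groups. Rnu3a, a U3 RNA of the same machinery, stood at 6.40, 6.59 and 6.64 against 5.17, 5.41 and 5.32 (log2 change 1.24, SE 0.12; adjusted p = 0.00302), and Snora16a at 9.01, 8.99 and 9.15 against 7.96, 7.83 and 7.67 (log2 change 1.23, SE 0.10; adjusted p = 0.00171). Snora31 (1.19, adjusted p = 0.0241), Snord104 (0.83, adjusted p = 0.0220) and Snord87 (0.83, adjusted p = 0.0450) rose as well. In all, 6 of 51 measured small nucleolar RNAs rose (11.8%) and none fell, beside Rnu3a, which was not in that list. Of the 51, 47 had a change above 0, and the median was 0.28 with a 4-week median of −0.19. Most such RNAs are cut from introns of host genes. By position alone, 28 small RNAs lay inside 24 measured genes in the RefSeq annotation, counted here as hosts. Strand and intron were not checked, so a counted gene need not be the true host. The median change was 0.22 for these small RNAs and −0.011 for the counted hosts, and 0 hosts passed. Of the raised small RNAs, only Snora31 and Snord87 lay inside a measured gene. Tpt1, the host of Snora31, had a change of −0.03 (adjusted p = 0.876). Mcmdc2, the measured gene whose bounds hold Snord87, had a change of −0.18 (adjusted p = 0.384), and whether it is the host was not examined. For Snora44, Snord118, Rnu3a, Snora16a and Snord104 no measured host was found, so none was examined. Snora44 and Snora16a both lie on chromosome 4, and a shared precursor was not examined, so their values may not be independent. At an unadjusted p under 0.05 in limma, 4 of 24 hosts differed, 2 in each direction, against 16.3% of all genes, and the array does not separate a small RNA from its precursor. Snora44, Snord118, Rnu3a and Snora16a were kept in all 9 fits, while Snord104 was lost in 5, Snora31 in 6 and Snord87 in 7 (adjusted p up to 0.133).

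**Figure D4:**
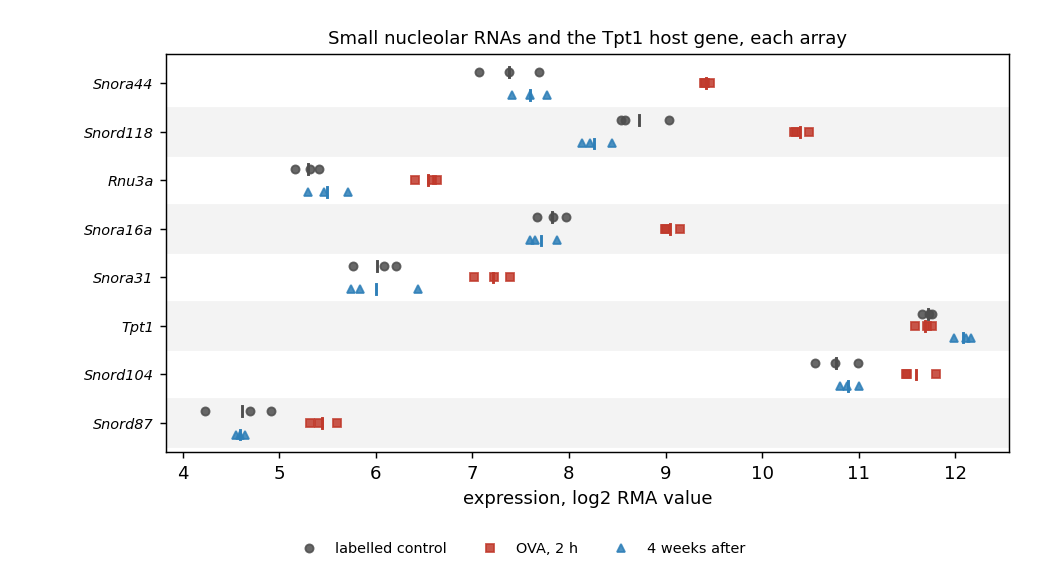
Log2 RMA values of 7 small nucleolar RNAs and of Tpt1, the host gene of Snora31, on each array (symbols) with group means (ticks). For the small RNAs the OVA arrays lie above both other groups, whereas the OVA and control arrays of Tpt1 overlap.

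Genes of plasma proteins that come mostly from liver were lower in the OVA arrays than in the arrays labelled control. Of 50 measured, 13 fell (26.0%) and none rose, and the median was −0.27 with a 4-week median of −0.34. No overlap was seen in 25 in the lower direction, against 11.0% of all genes, and in 3 in the higher, against 10.2%. Hpx, which encodes the haem carrier hemopexin, stood at 4.58, 5.03 and 4.98 in the OVA arrays against 7.13, 6.79 and 6.33 and was 3.69-fold lower (log2 change −1.88, SE 0.21; adjusted p = 0.00764), with a 4-week mean of 4.80. Rbp4, the carrier of retinol, stood at 6.00, 6.12 and 6.38 against 8.15, 7.90 and 7.67 (log2 change −1.74, SE 0.14; adjusted p = 0.00171), and its partner Ttr, which also carries thyroxine, at 5.63, 5.25 and 5.95 against 7.09, 6.83 and 6.79 (log2 change −1.29, SE 0.16; adjusted p = 0.0105). Alb, albumin, stood at 3.78, 4.00 and 4.12 against 5.19, 4.98 and 5.11 (log2 change −1.13, SE 0.15; adjusted p = 0.0160). The 4-week means were near those of the OVA arrays (6.37 for Rbp4, 5.57 for Ttr and 3.80 for Alb). The clotting and fibrinolysis genes Fgg (−1.11, adjusted p = 0.0139), Serpinc1 (−0.90, adjusted p = 0.0220), Plg (−0.72, adjusted p = 0.0228) and F2 (−0.53, adjusted p = 0.0334), the apolipoproteins Apoc3 (−0.87, adjusted p = 0.0227) and Apob (−0.79, adjusted p = 0.0184), Itih3 (−1.09, adjusted p = 0.0185) and vitronectin, Vtn (−1.07, adjusted p = 0.0128), fell too. The list also held Cps1, an enzyme of the urea cycle and no plasma protein, which stood at 4.96, 4.61 and 4.82 against 6.75, 6.36 and 5.95 (log2 change −1.56, SE 0.19; adjusted p = 0.00951). The summed level of the list, which its brightest members Serpina3n and Fetub carried, was 13.12 to 13.63 in the OVA arrays against 12.75 to 13.20. Serpina3n, an acute-phase serpin also made outside the liver, had a change of 1.12 that did not pass (adjusted p = 0.0843). Hpx, Rbp4 and Ttr were kept in all 9 fits, and removing control replicate 2 kept 4 of the 13 calls, OVA replicate 1 kept 5, OVA replicate 3 kept 7 and each other array 11 to 13 (adjusted p of the lost ones up to 0.120). With the compared groups alone 5 were kept.

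**Figure D5:**
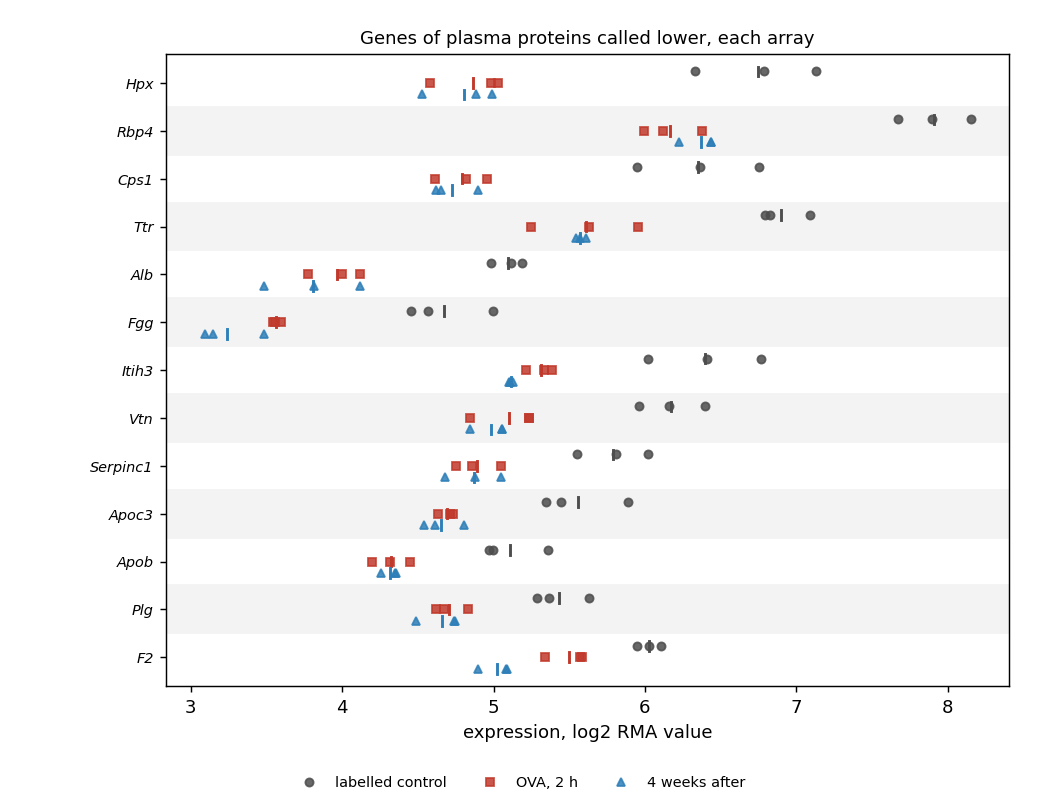
Log2 RMA values of the 13 members of the plasma protein list that passed the test, on each array (symbols) with group means (ticks). The arrays labelled control lie above the OVA and the 4-week arrays for every gene shown.

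Other genes known from liver or kidney, grouped after their values were seen, were lower in the same way. Tdo2, the first enzyme of tryptophan breakdown, stood at 3.39, 3.40 and 3.44 in the OVA arrays against 4.44, 4.31 and 4.55 (log2 change −1.03, SE 0.09; adjusted p = 0.00218), with a 4-week mean of 3.21. Akr1d1, a reductase of bile acid synthesis, stood at 3.64, 3.61 and 3.88 against 4.59, 4.59 and 4.46 (log2 change −0.84, SE 0.09; adjusted p = 0.00764). Slc38a4, an amino acid transporter, stood at 3.98, 4.40 and 4.40 against 5.57, 5.28 and 5.35 (log2 change −1.14, SE 0.13; adjusted p = 0.00764). Cyp4a14, a fatty acid hydroxylase, stood at 3.68, 3.66 and 3.77 against 5.11, 5.42 and 5.12 (log2 change −1.51, SE 0.14; adjusted p = 0.00218), with a 4-week mean of 3.54. It was the single call among 38 autosomal genes known for sex-biased expression in mouse liver or kidney, whose median was −0.12. Gulo, which completes vitamin C synthesis (−0.79, adjusted p = 0.0470), the RNA-editing cofactor A1cf (−0.66, adjusted p = 0.0249), Keg1 (−0.85, adjusted p = 0.0185), Pzp (−0.62, adjusted p = 0.0160), Igfbp1 (−0.61, adjusted p = 0.0393) and the complement protease Masp2 (−0.45, adjusted p = 0.0230) fell too. Bhmt, a methyltransferase of the homocysteine cycle, had probe sets that disagreed, at −0.60 (adjusted p = 0.0317), −1.25 (adjusted p = 0.00884) and 0.01 (adjusted p = 0.990). Tdo2, Akr1d1, Slc38a4 and Cyp4a14 were kept in all 9 fits, Pzp was lost without OVA replicate 1 or control replicate 2, and the others in 4 (A1cf, Keg1) to 9 (Igfbp1) fits, with adjusted p up to 0.142. On every OVA and control array, Tdo2, Akr1d1, Slc38a4 and Cyp4a14 lay below 6.38, the lowest array median of the tested probe sets, so signal near background limits them too.

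Some metabolic genes, grouped after their values were seen, fell in the OVA arrays while their 4-week means stayed near or above those of the arrays labelled control. Ech1, an enzyme of fatty acid oxidation, stood at 8.54, 8.68 and 8.57 in the OVA arrays against 9.10, 9.13 and 9.08 (log2 change −0.51, SE 0.06; adjusted p = 0.0111), with a 4-week mean of 9.05. Acot2, a mitochondrial thioesterase, had a mean of 6.85 ± 0.14 (SD, n = 3) against 7.53 ± 0.12 (log2 change −0.68, SE 0.12; adjusted p = 0.0314), with a 4-week mean of 7.50. Ephx1, the microsomal epoxide hydrolase that is abundant in olfactory mucosa, stood at 9.31, 9.14 and 9.01 against 9.62, 9.81 and 9.60 (log2 change −0.52, SE 0.10; adjusted p = 0.0493), and its 4-week mean was 9.92. With Tst, Gstm7 and Slc38a4 it made 4 of 76 conjugation, transport and detoxification genes lower and none higher, with a median of −0.14. Of 84 cytochrome P450 genes 3 fell (Cyp4a14, Cyp4f14 and Cyp2d26) and Cyp2j6 rose (0.60, adjusted p = 0.0186). Rpl38 alone of 52 ribosomal protein genes passed, lower (−0.50, adjusted p = 0.0415), and its 3 other probe sets had changes of −0.49 to −0.53, of which 1 passed. Ech1 was lost without control replicate 2 only (adjusted p = 0.0551), while 6 fits ended the call of Acot2, 8 that of Ephx1 and all 9 that of Rpl38, with adjusted p up to 0.153.

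The largest fall among the calls was in a secreted BPI fold protein. Bpifb9a, made by nasal glands, stood at 5.12, 5.82 and 8.21 in the OVA arrays against 9.87, 11.57 and 12.10 (log2 change −4.80, SE 0.88; adjusted p = 0.0415), and its arrays were spread over more than 2 log2 units in each group. Its neighbour Bpifb9b stood at 5.06, 7.46 and 9.20 against 11.30, 12.15 and 12.41 and missed the threshold (change −4.71, adjusted p = 0.05004). Bpifb5 had 5.79, 5.88 and 6.49 against 7.17, 8.56 and 11.84, where control replicate 3 stood far above the others (change −3.14, adjusted p = 0.156). The other 16 of 17 measured BPI fold genes did not pass, and their family's median was 0.002. Bpifb9a did not pass in 6 fits, among them those without control replicate 2 or 3 and OVA replicate 1 or 2 (adjusted p up to 0.141).

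Further calls, chosen for mention after their values were seen, had other roles. Hcar2, the receptor for nicotinic acid and ketone bodies on myeloid and epithelial cells, stood at 6.04, 6.58 and 6.07 in the OVA arrays against 5.43, 5.11 and 5.02 (log2 change 1.04, SE 0.15; adjusted p = 0.0192). Sfrp4, a secreted Wnt antagonist, stood at 8.17, 8.00 and 8.53 against 7.22, 7.48 and 6.94 (log2 change 1.02, SE 0.16; adjusted p = 0.0239), with a 4-week mean of 7.75. The ubiquitin ligase gene Rnf19b stood at 6.78, 7.29 and 6.97 against 5.96, 6.19 and 5.99 (log2 change 0.97, SE 0.12; adjusted p = 0.0123). Tnfrsf11b, the decoy receptor osteoprotegerin (0.50, adjusted p = 0.0394), the survival factor Mcl1 (0.57, adjusted p = 0.0365), the cholesterol exporter Abca1 (0.50, adjusted p = 0.0487), the kinase Mapk8 (0.41, adjusted p = 0.0429), the aryl hydrocarbon receptor Ahr (0.45, adjusted p = 0.0240), the tonicity factor Nfat5 (0.87, adjusted p = 0.0201), the NAD synthesis enzyme Nampt (0.65, adjusted p = 0.0415) and the antiproliferative gene Btg1 (0.66, adjusted p = 0.00838) also rose. Fkbp5, a glucocorticoid-induced chaperone (0.64, adjusted p = 0.0431), and Cebpd were 2 of 32 glucocorticoid-responsive genes higher, and Timp3, an inhibitor of metalloproteinases (0.72, adjusted p = 0.0241), and Ccn2 were 2 of 44 in the metalloproteinase and tissue repair list, with none lower in either. Of 25 B cell and plasma cell genes, the adaptor Blnk (0.55, adjusted p = 0.0321) and Xbp1 rose and none fell. Among small regulatory RNAs, the precursors of the microRNAs Mir143 (−0.40, adjusted p = 0.0457) and Mir100 (−0.44, adjusted p = 0.0443) were lower. Rnf19b and Btg1 were kept in all 9 fits, and the others named here were lost in 2 to 9 of the 9 fits, with adjusted p up to 0.144.

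Several lists held no call in either direction in limma. Genes of motile cilia had a median of −0.20, and 11 of 60 were lower and 0 higher at an unadjusted p under 0.05 (8.00% and 8.32% of all genes). At the same unadjusted threshold, which 16.3% of all genes passed in either direction, 10 of 28 endothelial genes differed, 10 of 37 genes of the leukotriene, prostaglandin and histamine pathway, 11 of 64 defensins and antimicrobial peptides, and 7 of 98 kallikreins, cathepsins and serine proteases. The same held for 3 of 41 collagens, 3 of 30 muscle, bone, cartilage and fat genes, 2 of 15 erythroid and marrow genes, 2 of 16 glial genes and 3 of 27 genes of solitary chemosensory cells. Ptgs2, the inducible prostaglandin synthase, had no overlap between the groups and did not pass (7.24, 7.89 and 7.52 against 6.43, 6.13 and 6.19; change 1.30, adjusted p = 0.0842). In data simulated for this comparison the test recovered 72% of the probe sets given a 1.5-fold change and 88% of those given a 2-fold change. Of its 187 calls, 11 were false. The noise was drawn independently for each probe set and array, with no deviation shared across an array. These shares therefore do not tell how many changes were missed in the real arrays.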

How the data were processed

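Total RNA from nasal mucosa was amplified with a whole-transcript kit, labelled with biotin and measured on Affymetrix Mouse Gene 1.0 ST arrays, per the labels' protocols. The deposited table holds log2 expression values, which the authors made with RMA, per the submitters' processing notes; for the software, its version and the summary level, the entry is: not given in the sources used here. The values ran from 1.63 to 13.8 and were used as deposited, with no further background correction or normalization, so differences in overall RNA amount are not measured. Probe sets were named through the platform's annotation of 2016: 21789 rows had a single gene symbol, 1621 several and 12146 none, and symbols were updated through RefSeq (21698 rows matched). Rows with a symbol were tested. A gene with several probe sets is represented by the one with the highest mean over the 9 arrays, and probe sets with several genes name no gene.

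All 9 arrays entered a single fit with limma 3.58.1 in R 4.3.3 (lmFit and eBayes with 6 residual degrees of freedom), and OVA minus control was tested with Benjamini-Hochberg adjustment over 23410 probe sets at a threshold of 0.05. Fold changes are on the scale of the deposited values. No probe detection calls were used, so dim genes carry values near the background of the array. The named genes are up to 30 of the largest rises and falls past the threshold, list members past it (at most 6 olfactory receptors), the 3 or fewer with the smallest p in each list, fixed allergy and cell markers, and other probe sets of these genes; some further calls are named after their values were seen. The members and gene lists were chosen with earlier results of these data known. The fit was tested on simulated data. Alternatives were quantile normalization, median centring, a filter on low values, every row tested, 1 probe set per gene, the compared groups alone, a trend with robust variance, the replicate number as a block and each array left out. Promoters are the 250 bases before each start site in the RefSeq table of GRCm38.p6.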

Additional observations from a re-analysis of the deposited data

Results flagged for a closer look

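The rows without a gene symbol, which entered no comparison above, were tested in a fit of every row of the table. Of 12146 such rows, 20 were higher and 8 lower in the OVA arrays than in those labelled control (0.231%; limma, adjusted p under 0.05). They were singled out because they hold a difference outside the genes described, and they are not named here.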

How the results depend on the processing

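The replicate numbers shared by the groups were checked for a pairing of the arrays. The correlations of deviations from the group means between same-numbered control and OVA arrays were 0.307, 0.031 and 0.147. Each control array correlated best with the OVA array of its own number. In the other direction, OVA replicate 2 correlated best with control replicate 3 (0.102). These correlations do not settle whether the numbers pair the arrays. With the replicate number as a block, 58 autosomal genes were lower and 111 higher, and 143 of the 244 calls were kept. Testing every row gave 143 called rows, those without a symbol included, with 52 higher and 38 lower autosomal genes. The compared groups alone gave 109 probe sets, with 40 higher and 45 lower autosomal genes. Leaving out each array in turn gave 63 to 305 probe sets, 28 to 115 higher and 20 to 127 lower autosomal genes. The filter that kept the brighter 60% of probe sets gave 174 higher and 69 lower, and it tested 13 of the 50 plasma protein genes and 367 of the 1009 olfactory receptors. Of the 244 called autosomal genes, 0 changed direction under any alternative named in the account of the processing, although the filter tested 171 of them. Among genes that did not pass, the log2 change crossed 0 when an array was left out in Prg2 (−0.0376 to 0.4427), Epx (−0.045 to 0.3944), Trp63 (−0.0251 to 0.1942), Fcer1a (−0.0169 to 0.1989), Il4 (−0.0876 to 0.175), Cd3e (−0.0692 to 0.169), Dmp1 (−0.1287 to 0.1821), Scgb1a1 (−0.0201 to 0.0722), Foxj1 (−0.1372 to 0.0811), Il5 (−0.0945 to 0.0704), Cd79a (−0.2494 to 0.1376), Ccl17 (−0.4306 to 0.1476), Adcy3 (−0.2543 to 0.0357) and Dnah5 (−0.5592 to 0.1633). The cause was not tested. The limits are the 3 arrays a group, a spread that rests on all 9 arrays, signal near background for dim genes, and the sex-linked pattern of the arrays labelled control.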
